A study of Mus musculus with 12 samples.

Results

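A set of 10 DNA repair genes, called members below, was examined in sorted mouse oligodendrocytes with and without a Cre driver that recombines Lmna: Parp1, Xrcc5, Ercc5, Rev1, Rev3l, Bard1, Exo1, Tdg, Pms1 and Smarcal1. They were taken by symbol from a table of read counts, and all 10 were found among its 2398 genes. The cells were myelinating oligodendrocytes of C57BL/6 brains at postnatal day 60 (8 weeks in another field of the labels), sorted as positive for the Ndrg1-EGFP reporter and negative for propidium iodide, which stains cells with broken membranes. Both genotypes carried the reporter and floxed Lmna alleles (Lmna fl/fl), Lmna being the gene of lamins A and C. WT animals were Cnp+/+, and KO animals had Cre recombinase expressed from 1 allele of Cnp, an oligodendrocyte lineage gene (Cnp Cre/+), so the genotypes differed in intact Cnp copies as well as in Cre. Each genotype had 3 biological replicates with 2 libraries each, which were summed to 1 sample (n = 3). The sources used here do not say how many animals made up a replicate.

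DNA repair is a set of pathways matched to kinds of damage. Base excision removes altered bases, nucleotide excision cuts out bulky lesions, mismatch repair corrects copying errors, end joining and homologous recombination rejoin broken ends, and translesion polymerases copy past damage that stops the replicative enzymes. A myelinating oligodendrocyte no longer divides, so it has no sister chromatid as a template for recombination and relies mainly on excision and end joining, while the A-type lamins are known from other cell types to influence the choice and stability of break repair factors.

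The stretches of promoter below are shown because they lie before members of different level. The most abundant are Tdg and Parp1, and Pms1 is lower. Bard1 is the member closest to the detection limit among those tested. All stretches come from the RefSeq table of promoters for GRCm38.p6 (the mm10 assembly). They are read 5′ to 3′ on the strand of the gene, and stop before the first annotated exon. Capitals mark matches to the motifs searched, on either strand.
Tdg, chr10:82629688-82629808, plus strand: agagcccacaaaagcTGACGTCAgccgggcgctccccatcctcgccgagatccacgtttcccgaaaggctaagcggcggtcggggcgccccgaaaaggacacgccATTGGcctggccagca
Parp1, chr1:180568801-180568890, plus strand: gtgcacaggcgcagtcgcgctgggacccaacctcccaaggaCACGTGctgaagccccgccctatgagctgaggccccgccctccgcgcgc
Pms1, chr1:53297032-53297091, minus strand: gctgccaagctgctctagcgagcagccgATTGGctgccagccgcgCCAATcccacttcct
Bard1, chr1:71103147-71103222, minus strand: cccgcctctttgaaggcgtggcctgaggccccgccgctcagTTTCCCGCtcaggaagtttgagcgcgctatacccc
The table held a promoter for 8 of the 10 members, and Exo1 and Rev3l had no entry. The motifs were the CCAAT box (CCAAT, which on the opposite strand of the gene is read as ATTGG), the E-box CACGTG, the cyclic AMP response element TGACGTCA, the ETS motif CCGGAAG, the NRF1 motif and 2 forms of the E2F motif, TTTCCCGC and TTTGGCGC. The windows searched were the 250 bases before the start that the table lists, which can lie inside the RefSeq gene, so they are not always upstream of it. The CCAAT box was found in 5 of the 8 members (Tdg, Pms1, Xrcc5, Ercc5, Smarcal1) and in 33.85% of all 32851 promoters. Of these matches, that of Ercc5 lay 605 bases past the RefSeq gene start and that of Smarcal1 46447 bases past it, while those of Tdg, Pms1 and Xrcc5 lay before it. The E-box was found in 4 of 8 (Tdg, Parp1, Xrcc5, Rev1) and in 6.02% of all. The matches of Parp1 and Xrcc5 ended 44 and 189 bases before the RefSeq gene start, that of Tdg ended 1 base past it, and that of Rev1 ended 55 bases past it. TGACGTCA was found in Tdg, 104 bases before the RefSeq gene start, and in 1.55% of all promoters. TTTCCCGC was found in Bard1, 33 bases before the RefSeq gene start, and in 0.895% of all. CCGGAAG was found in Pms1, as 2 matches that overlap on opposite strands, and in 6.91% of all. The GC content of these 8 windows ran from 44.8% in Xrcc5 to 83.6% in Rev1, against a median of 52.4% over all promoters. A match describes the letters and does not show that a factor binds.

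A library had between 1838676 and 3060812 counts in the genes of the table, and a replicate between 3694551 and 6093336. These genes lie on chromosomes 1 and 10 only, so the totals cover part of each library, and neither Lmna nor Cnp was analysed here. Levels are given as CPM, the usual normalised read count, here relative to the counts in the table and after TMM scaling, a correction for library composition. Of 16 oligodendrocyte markers, the table held 2, Adamts4 and Nfasc (the others were not analysed here), which summed to 10318 to 11897 CPM in WT and 14779 to 17093 CPM in KO, the groups not overlapping. In edgeR's quasi-likelihood test the adjusted p was 0.504 for Adamts4 and 0.927 for Nfasc, so neither passed. Adamts4 was among the genes called higher by DESeq2 (adjusted p = 0.00186), where Nfasc had an adjusted p of 0.204. Both were called by limma's duplicateCorrelation fit of the 12 libraries (adjusted p = 0.000123 and 0.0266). That fit enters the 2 libraries of a replicate separately, though they differed by little more than sampling noise. With limma-voom on the 6 summed replicates, Adamts4 had an adjusted p of 0.552 and was not called. Their part in any result on repair genes was not tested. In RNA from sorted cells, fewer cells of a type and less RNA per cell cannot be told apart.

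None of the 9 tested repair genes differed between KO and WT beyond the spread between replicates. For the 8 members with at least 50 counts in every replicate, the log2 fold changes lay between -0.07 for Tdg and 0.17 for Pms1, and every 95% interval stayed between 0.737-fold and 1.52-fold. Bard1 was near the detection limit and its interval was wide, and Exo1 was too low to be tested. With edgeR's quasi-likelihood test and Benjamini-Hochberg adjustment over the 1484 genes tested, 0 of the 9 tested members passed an adjusted p of 0.05, where 0% of all genes passed, and 59 of all genes had an unadjusted p under 0.05, with 0 of the members among them. DESeq2 called 0 members and 0.472% of all genes (7 genes). Replicates of KO and WT did not overlap in 0 of the 9 tested members and in 8.49% of all genes tested. Of the 9, 4 had a log2 fold change above 0, and their median was -0.02 against -0.01 over all genes tested.

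Tdg, thymine DNA glycosylase, starts base excision at mispaired thymine and also removes oxidised forms of methylcytosine during DNA demethylation. It lies on chromosome 10 from 82629814 to 82650799 and had the highest level of the 10 members. WT replicates 1 to 3 had 895, 951 and 957 CPM, and KO replicates 1 to 3 had 740.1, 880 and 1047 CPM. KO replicates 1 and 2 were below every WT replicate, and KO replicate 3 was above every WT replicate. The WT replicates averaged 934 ± 34.3 CPM and the KO replicates 889 ± 154 CPM (SD, n = 3), for a fold change of 0.952 and a 95% interval of 0.768 to 1.18 (edgeR adjusted p = 0.994). The Glt8d2 gene on the opposite strand shares 6.83% of the exonic bases of Tdg.

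Parp1, poly(ADP-ribose) polymerase 1, binds strand breaks and marks proteins around them with ADP-ribose chains that recruit repair factors. It lies on chromosome 1 from 180568891 to 180600999. WT replicates 1 to 3 had 655, 710 and 683 CPM, and KO replicates 1 to 3 had 608, 761 and 821 CPM. As for Tdg, KO replicate 1 was the lowest of the 6 samples and KO replicate 3 the highest. KO replicate 2 was above the WT values. The fold change was 1.07 with a 95% interval of 0.870 to 1.32 (edgeR adjusted p = 0.994).

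Xrcc5 encodes Ku80, which with Ku70 forms the ring that holds broken ends for end joining. It lies on chromosome 1 from 72307417 to 72394953, in a stretch of 1.61 Mb that also holds Bard1 and Smarcal1. WT replicates 1 to 3 had 200.2, 188 and 198 CPM, and KO replicates 1 to 3 had 208, 190 and 164 CPM. Both the highest and the lowest sample were KO, and KO replicate 2 lay among the WT values. The fold change was 0.959 with a 95% interval of 0.768 to 1.198 (edgeR adjusted p = 0.994). The SD within a genotype was 0.13 on the log2 scale, the smallest of the 9 tested members, against a median of 0.26 over all genes tested.

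Ercc5 encodes XPG, the nuclease that cuts on the 3′ side of a lesion in nucleotide excision. It lies on chromosome 1 from 44146948 to 44181260. WT replicates 1 to 3 had 169, 186 and 218 CPM, and KO replicates 1 to 3 had 209, 184 and 181 CPM. The WT values enclosed all KO values, and the averages were 190.7 ± 24.7 CPM for WT and 191 ± 15.2 CPM for KO (SD, n = 3). The fold change was 1.00 with a 95% interval of 0.792 to 1.27 (edgeR adjusted p = 0.996).

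Pms1 belongs to the MutL family of mismatch repair. It lies on chromosome 1 from 53189187 to 53297031, and the sequence shown above lies between it and the divergent gene Ormdl1, which starts at 53297095 in RefSeq. WT replicates 1 to 3 had 86.4, 97.1 and 125 CPM, and KO replicates 1 to 3 had 126, 112 and 109.6 CPM. WT replicates 1 and 2 were below every KO replicate, and WT replicate 3 was level with the highest of them. The fold change, 1.12, was the largest of the 8 well-counted members, with a 95% interval of 0.829 to 1.52 (edgeR adjusted p = 0.994).

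Rev1 and Rev3l work together in translesion synthesis, Rev1 as a deoxycytidyl transferase and scaffold, and Rev3l as the catalytic subunit of polymerase zeta. Rev1 lies on chromosome 1 from 38052786 to 38129921. Its level was 160, 171 and 197 CPM in WT replicates 1 to 3 and 189.9, 169 and 223 CPM in KO replicates 1 to 3. The groups overlapped, and KO replicate 3 was the highest sample. The fold change was 1.102 with a 95% interval of 0.857 to 1.42 (edgeR adjusted p = 0.994). The gene Eif5b on the opposite strand shares 26.6% of the exonic bases of Rev1 and stood at 554 to 696 CPM. Per kb of exonic length, the mean was 67.2 CPM for Eif5b and 29.97 CPM for Rev1. No source used here states if reads were counted by strand. The level of Rev1 is therefore uncertain, by an amount that was not tested and need not stop at 26.6%.

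Rev3l lies on chromosome 10 from 39731561 to 39875211 and had no exonic bases in common with another gene. Its level was 147, 154 and 211 CPM in WT replicates 1 to 3 and 185, 155 and 159.9 CPM in KO replicates 1 to 3. WT replicate 3 was the highest sample, and the KO values lay within the WT range. The fold change was 0.977 with a 95% interval of 0.737 to 1.29 (edgeR adjusted p = 0.994). The ratio of Rev1 to Rev3l counts, which needs no scaling between libraries, was 0.936 to 1.11 in WT and 1.03 to 1.39 in KO. This ratio shares the uncertainty of the Rev1 level.

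Smarcal1 is an annealing helicase that remodels stalled replication forks coated with the single-strand binding protein RPA. It lies on chromosome 1 from 72536695 to 72636790. WT replicates 1 to 3 had 324, 359.9 and 361 CPM, and KO replicates 1 to 3 had 407, 297 and 324 CPM. KO replicate 1 was the highest sample here, as for Xrcc5, and KO replicate 2 the lowest. The fold change was 0.984 with a 95% interval of 0.784 to 1.24 (edgeR adjusted p = 0.994).

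Bard1 and Exo1, genes of recombination and resection, were close to the detection limit. Bard1 is the partner of Brca1 in a ubiquitin ligase of homologous recombination and lies on chromosome 1 from 71027535 to 71103141. Its counts were 41, 7 and 12 in WT replicates 1 to 3 and 15, 11 and 7 in KO replicates 1 to 3, which is 7.79, 1.74 and 2.16 CPM and then 4.27, 1.74 and 1.45 CPM. WT replicate 1 alone held most of the WT counts. Summed over replicates, the counts were 60 in WT (exact Poisson 95% interval 45.8 to 77.2) and 33 in KO (22.7 to 46.3), and without WT replicate 1 the WT sum was 19. The log2 fold change was -0.67 ± 0.91 (SE) with a 95% interval of 0.150-fold to 2.63-fold (edgeR adjusted p = 0.994), and without WT replicate 1 it was 0.32. That replicate also had 131 CPM of the choroid plexus gene Kcnj13, against at most 16.2 CPM in the other samples. The part of this in the level of Bard1 was not tested. Kcnj13 was the only 1 of 5 choroid plexus and ependymal markers in the table. Gigyf2 on the opposite strand shares 49.1% of its exonic bases, and the use of strand in counting was not given.

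Exo1, an exonuclease that resects broken ends and excises the strand in mismatch repair, lies on chromosome 1 from 175880768 to 175911396. It had 6 counts in WT replicate 1, 8 in KO replicate 3 and 0 in the other 4 replicates. A count of 0 allows up to 3 counts, which is 0.475 to 0.854 CPM depending on the replicate. With summed counts of 6 in WT (exact Poisson 95% interval 2.202 to 13.1) and 8 in KO (3.45 to 15.8), a difference between genotypes was not detectable at this depth. Such intervals and limits cover counting error only.

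**Figure D1:**
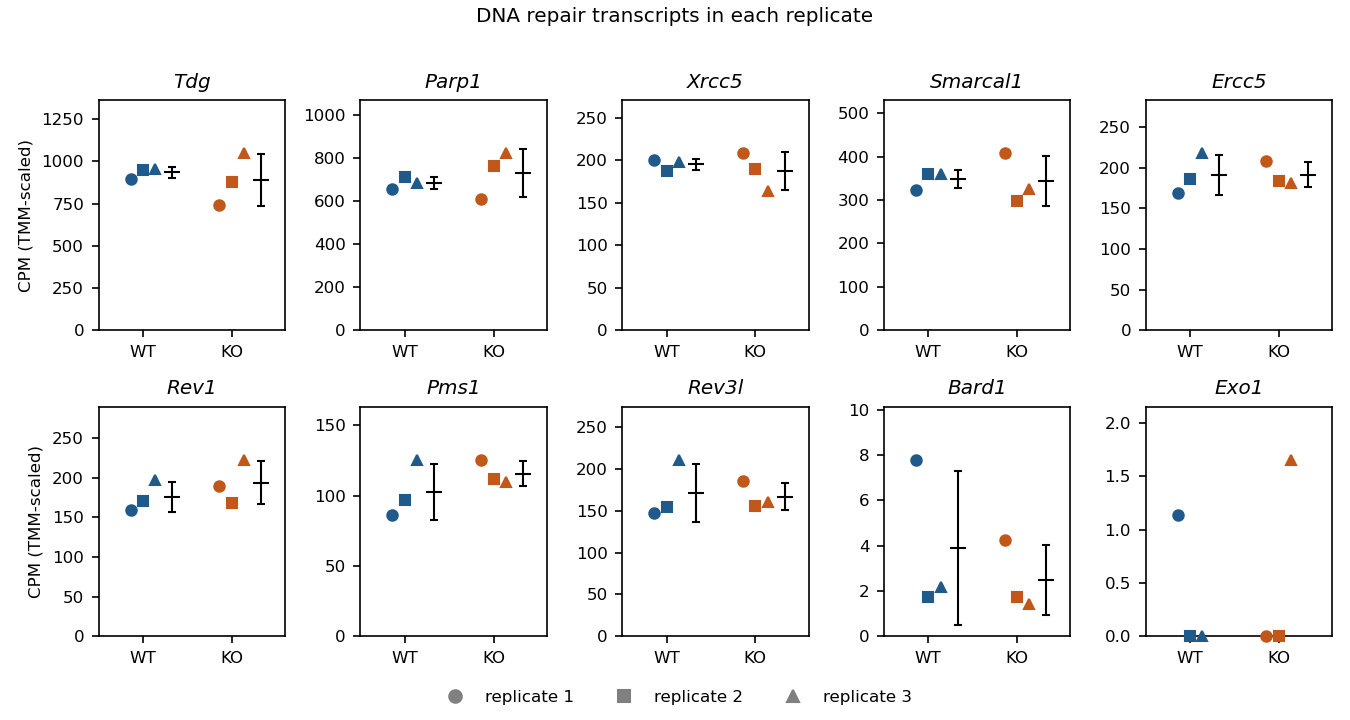
Level of each of the 10 repair genes in CPM (vertical axes from 0), with a symbol for each replicate, WT in blue and KO in orange, and the mean with SD (n = 3) as a black bar where no replicate was at 0. The KO points overlap the WT points in every panel, and Bard1 and Exo1 stay below 8 CPM.

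**Figure D2:**
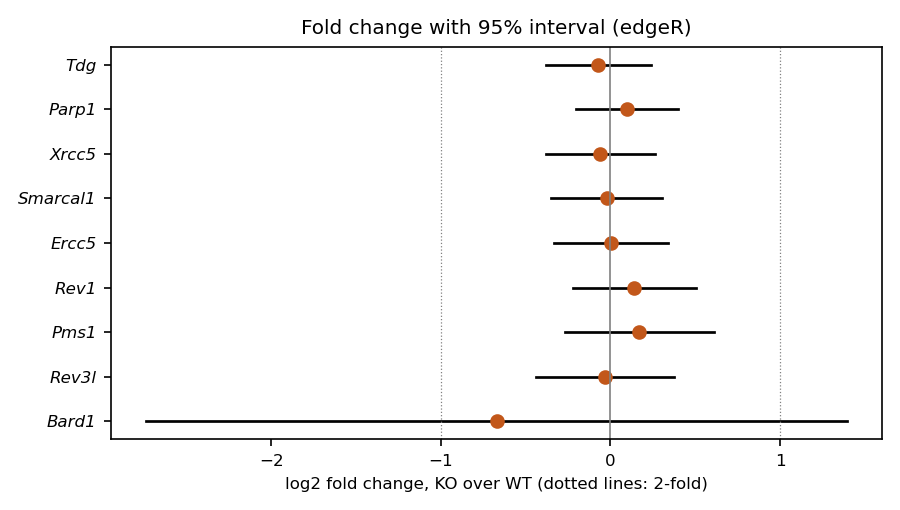
Log2 fold change of KO over WT (points) with its 95% interval from edgeR (lines) for the 9 tested members, and dotted lines at a 2-fold change. The intervals of 8 members lie inside the dotted lines, and that of Bard1 runs from -2.74 to 1.39.

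The precision differed by level. The 8 well-counted members had SE values of the log2 fold change from 0.13 to 0.19, against a median of 0.21 over all genes tested, and stood between the 45.0th and the 82.6th percentile of CPM among those genes. Intervals within 1 log2 unit of no change were found for these 8, not for Bard1, and for 63.6% of all genes tested. The 8 were picked by count and the genes tested include some with few counts, so these comparisons are not on like terms. A 2-fold change in either direction lay outside the interval of each of the 8.

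To compare genes with each other, CPM was divided by the exonic length of each gene in GENCODE M21, given as CPM per kb. Over the 6 replicates the mean levels were 169.6 for Tdg, 133 for Parp1, 74.9 for Xrcc5, 60.3 for Smarcal1, 32.6 for Ercc5, 29.97 for Rev1, 14.5 for Pms1, 12.7 for Rev3l, 0.564 for Bard1 and 0.0553 for Exo1. By exonic length, the members formed pairs of neighbours. The ranges of Tdg and Parp1, of Xrcc5 and Smarcal1, of Ercc5 and Rev1, and of Pms1 and Rev3l over the 6 replicates overlapped. Within single replicates, Tdg stood above Parp1, Xrcc5 above Smarcal1 and Pms1 above Rev3l in all 6. Ercc5 stood above Rev1 in 5 of the 6. Each pair lay apart from the next. The glycosylase Tdg and the break sensor Parp1 thus stood above the end-joining gene Xrcc5 and the fork gene Smarcal1, and these above the nuclease Ercc5 and Rev1. Rev3l stood 22.5-fold above Bard1 per length, the widest step between neighbours. With the longest transcript as the length, Smarcal1 came before Xrcc5, and the other 8 members kept their rank. The pairs depended on the length, however. Rev1, Pms1 and Rev3l then had means of 43.4, 35.8 and 15.6, so Pms1 stood nearer to Rev1 than to Rev3l. With either length, the place of Rev1 carries the uncertainty from its overlap with Eif5b.

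**Figure D3:**
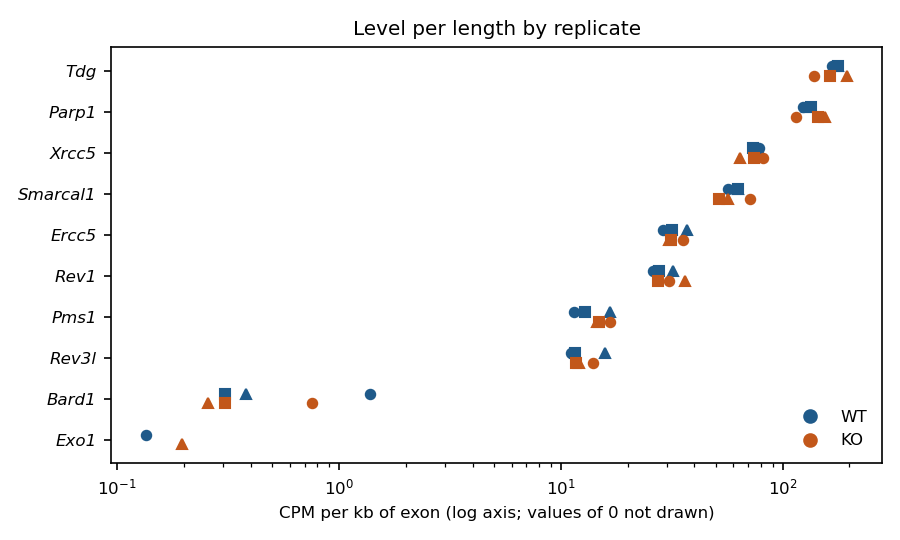
CPM per kb of exon on a log axis for each member, with a symbol for each replicate, WT in blue and KO in orange, and values of 0 left out. The levels fall from about 170 for Tdg to under 2 for Bard1 and Exo1, with the same order of the pairs in both genotypes.

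Ratios of 2 members within a sample are free of scaling between libraries. Of the 28 ratios among the 8 well-counted members, 3 (10.7%) did not overlap between genotypes. Among all ratios of tested genes with counts in all 6 replicates, a looser filter than that of the 8 members, 8.91% did not overlap. The ratio of Tdg to Parp1 was 1.34 to 1.401 in WT and 1.16 to 1.27 in KO, with means of 1.37 ± 0.0303 and 1.22 ± 0.0590 (SD, n = 3). The ratio of Ercc5 to Pms1 was 1.74 to 1.96 in WT and 1.64 to 1.66 in KO, and that of Pms1 to Rev3l was 0.587 to 0.631 in WT and 0.678 to 0.721 in KO. Each of the 3 had p = 0.1 in a two-sided exact permutation test, the smallest that 3 against 3 allow, and 0.933 after adjustment over the 28 ratios. The share of ratios without overlap was near that of the wider set of genes, and the ratios share members.

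The other repair genes were taken from lists of 155 genes in 7 pathways, of which 25 were in the table and 24 were tested. The lists of base excision, nucleotide excision and mismatch genes had none of their genes in the table apart from the members, so these pathways are represented here by Tdg, Parp1, Ercc5, Pms1 and Exo1 only. Of the 24 tested, 0 passed in either direction in edgeR (adjusted p under 0.05), 12 had a log2 fold change above 0 and 12 below, and the median was -0.00 against -0.01 over all genes tested.

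In end joining and the response to double-strand breaks, 11 genes were tested, 0 passed, and the median log2 fold change was 0.03. Ube2n, the conjugating enzyme for ubiquitin chains at breaks and on the sliding clamp, had 1797 to 2267 CPM in WT and 1802 to 2066 CPM in KO. Pwwp3a, a chromatin protein of the damage response, had 799 to 1167 CPM in WT and 849 to 910.2 CPM in KO. Uchl5, a deubiquitinase of the proteasome and of the INO80 remodeller, had 417, 472 and 413 CPM in WT replicates 1 to 3 and 368, 385 and 381 CPM in KO replicates 1 to 3. Every KO replicate of Uchl5 was below every WT replicate, with a log2 fold change of -0.20 ± 0.11 (SE) and an edgeR adjusted p of 0.994, and it was the 1 gene of the 24 whose groups did not overlap, where 8.49% of all genes tested did not.

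In recombination, resection and crosslink repair, 7 genes were in the table, 6 were tested, 0 passed, and the median log2 fold change was -0.12. Nucks1, a chromatin protein that takes part in recombination, had 908 to 1005 CPM in WT and 902 to 1024 CPM in KO. Mcm9, a helicase of recombination and mismatch repair, had 88.7 to 103 CPM in WT and 84.5 to 90.4 CPM in KO, and Asf1a on the opposite strand shares 19.2% of its exonic bases. Dna2, a nuclease and helicase of resection, was low like Bard1, with 6.46 to 10.1 CPM in WT and 2.85 to 6.49 CPM in KO (edgeR adjusted p = 0.994).

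In damage tolerance and fork remodelling, 5 genes were tested, 0 passed, and the median log2 fold change was 0.07. Zfp365, linked to the stability of fragile sites, had 1709 to 2244 CPM in WT and 1772 to 2260 CPM in KO. Sde2, a regulator of the fork response, had 508 to 609 CPM in WT and 534 to 713 CPM in KO, and Ints7, a subunit of the Integrator complex, had 602 to 649 CPM in WT and 585 to 725 CPM in KO. In alkylation repair, the genes tested were Ascc1, with 292 to 355 CPM in WT and 307 to 316 CPM in KO, and the helicase Ascc3, with 194 to 355 CPM in WT and 224 to 269 CPM in KO.

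The p53 response, which persistent DNA damage can induce, had 7 genes tested, of which 0 passed, and a median log2 fold change of -0.20. That median was 0.09 without WT replicate 3, -0.03 without KO replicate 1, -0.04 with limma-voom, -0.03 with duplicateCorrelation on 12 libraries and -0.10 with second libraries only. Under the other alternatives described below it stayed between -0.26 (without WT replicate 1) and -0.16 (upper quartile factors). Phlda3, a p53 target that restrains AKT, had 3809 to 5330 CPM in WT and 4215 to 4661 CPM in KO. Sesn1, a stress-inducible regulator of growth signalling, had 391 to 508 CPM in WT and 374 to 435 CPM in KO. Btg2, also an immediate early gene, varied between 129.9 and 1855 CPM among WT and between 241 and 1172 CPM among KO replicates. Atf3 and Gadd45b of this list also varied widely, with 32.8 to 241 and 124 to 438 CPM in WT. In KO, Atf3 had 37.0 to 208 CPM and Gadd45b had 146 to 321 CPM. Btg2, Atf3 and Gadd45b were all lowest in WT replicate 2 and highest in WT replicate 3. The list median of -0.20 was the value of Atf3.

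S phase and mitosis genes had 11 members in the table and 10 tested, of which 0 passed, and a median log2 fold change of 0.12, which was -0.25 without KO replicate 2. A group of 7 of them, Cdk1, Nuf2, Nek2, Cenpf, Aspm, Kif14 and Dtl, was picked for low level after the values were seen. These 7 ranged from 0 to 24.8 CPM in all samples, against at most 7.79 CPM for Bard1 and 1.65 CPM for Exo1. The 7 summed to 45.2 to 54.0 CPM in WT and 29.0 to 91.1 CPM in KO. Prim2, the large subunit of DNA primase, was higher than these, with 203, 188 and 189.9 CPM in WT replicates 1 to 3 and 117, 168 and 139.6 CPM in KO replicates 1 to 3. Every KO replicate of Prim2 was below every WT replicate, with a log2 fold change of -0.45 ± 0.17 (SE). Its edgeR p was 0.0244 unadjusted and 0.927 adjusted, so it did not pass. Prim2 was the 1 gene of the 10 without overlap and the 1 with an unadjusted p under 0.05. Of all genes tested, 8.49% did not overlap, and 59 of 1484 had an unadjusted p under 0.05. Zwint, a kinetochore gene known to be expressed in neurons too, had 346 to 462 CPM in WT and 370 to 469.6 CPM in KO. Mcm3 and Mcm6 of this list were also above the 7. Mcm3 had 108 to 117 CPM in WT and 98.7 to 125 CPM in KO. Mcm6 had 74.0 to 105 CPM in WT and 87.9 to 119 CPM in KO.

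**Figure D4:**
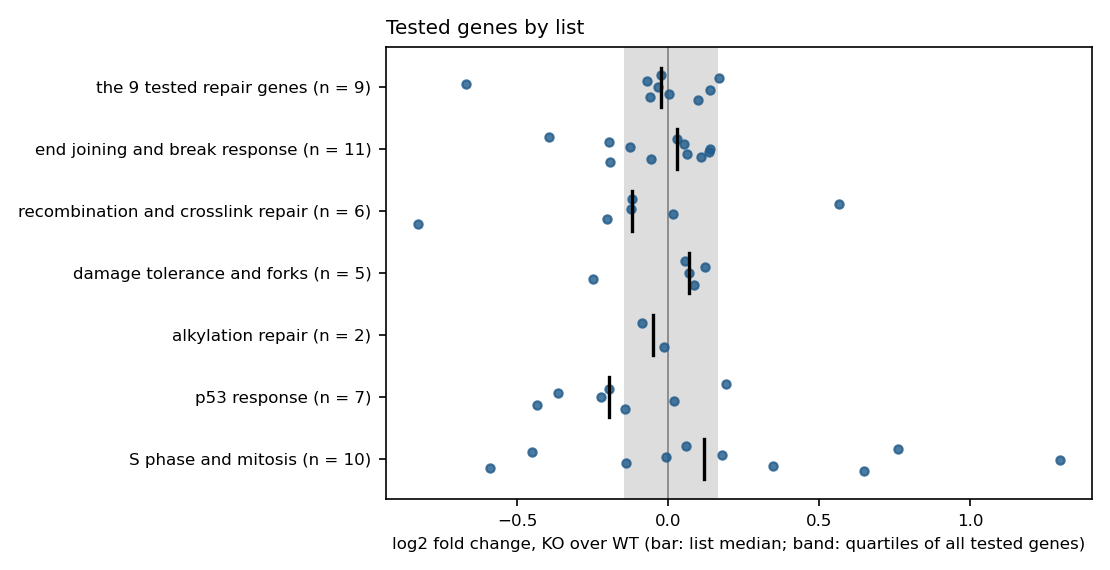
Log2 fold change of KO over WT for each tested gene (points) by list, with the list median as a black bar and the quartiles of all tested genes as a grey band from -0.15 to 0.16. The medians of 6 of the 7 lists lie inside the band and that of the p53 response genes lies at -0.20. The latter was 0.09 without WT replicate 3, -0.04 with limma-voom and -0.26 without WT replicate 1.

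Markers of other cells had few genes in the table, and their levels moved between replicates. The microglia and macrophage markers Ptprc and Fcer1g (2 of 9) summed to 41.5 to 85.5 CPM in WT and 47.0 to 242 CPM in KO. The astrocyte markers Gja1 and Gpr37l1 (2 of 8) summed to 271 to 661 CPM in WT and 435 to 923 CPM in KO, and the vascular and fibroblast markers Fn1, Dcn, Col3a1 and Rgs5 (4 of 10) to 83.5 to 459.97 CPM in WT and 245 to 634 CPM in KO. The neuronal markers Syt1 and Scg2 (2 of 9) summed to 7.03 to 247 CPM in WT and 10.5 to 46.8 CPM in KO, and the progenitor markers Tnr and Neu4 (2 of 9) to 0.497 to 36.5 CPM in WT and 12.2 to 95.6 CPM in KO. Rgs5 and Neu4 were at 0 in some replicates. KO replicate 1, with the lowest Tdg and Parp1 and the highest Xrcc5 and Smarcal1, also had the highest sums of astrocyte and of vascular and fibroblast markers, 923 and 634 CPM, and the lowest total count, and the part of these in the spread of the members was not tested.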

How the data were processed

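The authors deposited raw counts of reads per gene and library. The submitters' processing notes name HISAT2 and featureCounts, beside fastp, SAMtools 1.4.1 and DESeq2 1.38.1, and the build mm10. Their parameters, the annotation and the use of strand were not given in the sources used here. Of its lines, 2398 were complete and analysed, and 1 incomplete line was left out. A RefSeq symbol (GRCm38.p6) was found for 2226 identifiers and not for 172, which hold 0.552% of the counts.

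Counts of the 2 libraries of a replicate were close to sampling noise apart (chi-square of 1.00 to 1.06 per degree of freedom over genes with at least 20 counts) and were summed. The genotypes were tested with edgeR 4.0.16 in R 4.3.3 (TMM, filterByExpr, robust quasi-likelihood fit), with Benjamini-Hochberg adjustment over all genes tested. Fold changes are KO over WT. Each SE is the size of the log2 change over the root of its F statistic. Spread on the log2 scale used a pseudocount of 0.5 CPM. The fit was tested on simulated data. Alternatives were other size factors and filters, DESeq2 1.42.0, limma 3.58.1, a block for replicate number, single libraries, all 12 libraries and leaving out each replicate. Members and lists were chosen with earlier results of these data known. Beside the members, the text names the 2 most abundant genes of each list and the one of smallest p. It also names Atf3, Gadd45b and the other S phase and mitosis genes of the table.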

Additional observations from a re-analysis of the deposited data

How the results depend on the processing

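The count of 0 members called held under all 17 alternatives (smallest adjusted p of a member, 0.924), and the log2 fold changes of the 8 well-counted members stayed between -0.21 and 0.34. Over all genes, the counts of 0 higher and 0 lower moved to 6 higher and 1 lower with DESeq2 and to 7 higher with duplicateCorrelation on 12 libraries, and the cause was not tested. The replicate block in edgeR left 0 genes higher and 0 lower, with a members' median of -0.02. Same-numbered replicates had correlated deviations of -0.0032, -0.30 and 0.14, so the numbers gave no sign of pairing. Leaving out 1 replicate at a time gave members' medians from -0.067 to 0.11 (the latter without WT replicate 3), and that of S phase and mitosis genes from -0.25 (without KO replicate 2) to 0.19. Other medians that crossed 0 were those of p53 response genes (-0.26 to 0.095, the latter without WT replicate 3), alkylation repair (-0.15 to 0.063), end joining (-0.033 to 0.044) and damage tolerance (-0.011 to 0.10). The median of recombination, resection and crosslink repair stayed below 0 (-0.18 to -0.060), with 0 of its genes called.

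Log2 fold changes of single genes changed sign under some settings, none of them called there, and for Bard1 and Btg2 far from 0. Ercc5 had -0.029 with library totals, -0.0064 with limma-voom, -0.0019 with duplicateCorrelation and -0.092 with second libraries only. Smarcal1 had 0.0037 with upper quartile factors and 0.026 with second libraries only, where Rev3l had 0.027 and Ascc1 0.018. Ascc1 had 0.0088 with upper quartile factors. With library totals, Nucks1 had -0.016 and Phlda3 -0.0092. Without single replicates the ranges that crossed 0 were -0.14 to 0.025 for Xrcc5, -0.079 to 0.12 for Ercc5, -0.13 to 0.15 for Rev3l, -1.28 to 0.32 for Bard1, -0.21 to 0.042 for Tdg and -0.17 to 0.073 for Smarcal1. Among other genes they were -0.14 to 0.030 for Ube2n, -0.25 to 0.044 for Pwwp3a, -0.030 to 0.066 for Nucks1, -0.024 to 0.18 for Zfp365, -0.037 to 0.12 for Ints7, -0.059 to 0.077 for Ascc1, -0.26 to 0.18 for Ascc3, -0.057 to 0.19 for Phlda3, -1.15 to 0.71 for Btg2, -0.040 to 0.17 for Zwint and -0.016 to 0.15 for Eif5b. The length used for ranks and the settings for the ratio of Tdg to Parp1 were chosen after seeing the data, and that ratio's log2 difference of -0.17 stayed between -0.21 and -0.14. Exo1 had too few counts to be tested. Bard1 had low counts and also a wide spread, with an SD within a genotype of 0.88 on the log2 scale.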
